A study of Mus musculus with 2 samples.

Results

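The genes of the calcitonin gene-related peptide (CGRP) and adrenomedullin system were followed across the cell classes of mouse mesentery, the fold of tissue that carries vessels, nerves, fat and immune cells to the gut. They were 6 of the 27998 genes in the matrix, taken by symbol: the ligand genes Calca and Adm, the receptor gene Calcrl and the genes of the 3 receptor activity-modifying proteins, Ramp1, Ramp2 and Ramp3. All 6 were found in 1 row each. They were chosen by their measured levels across the cell types of these same data, so their levels are given as a description with no test. The study profiled single cells of the whole mesentery of 2 untreated wild-type male C57BL/6N mice, 1 library per mouse, in work on mesenchymal cells that support group 2 innate lymphoid cells (ILC2). Cells were released with Liberase DH, a collagenase blend, in DMEM with 4% BSA and captured with the Chromium 3′ chemistry, version 2. Both animals belong to 1 untreated group, which leaves no comparison between them. The labels' protocols name no sort before capture, and the age is not reported here.

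Calcrl encodes a class B G protein-coupled receptor that reaches the cell surface with a RAMP as its partner, and the partner sets the ligand. Calcrl with Ramp1 is the CGRP receptor, and Calcrl with Ramp2 or Ramp3 forms the adrenomedullin receptors; the complexes signal mainly through Gs and cyclic AMP. Calca gives calcitonin or CGRP by alternative splicing, which a count per gene cannot tell apart, and CGRP is best known as a vasodilator peptide of sensory nerves that also acts on leukocytes. Adm encodes adrenomedullin, a vasodilator peptide needed for the integrity of blood and lymphatic vessels.

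In the GENCODE M21 annotation of GRCm38 (mm10), Calca (ENSMUSG00000030669) lies on chromosome 7 from 114631478 to 114636357 and Adm (ENSMUSG00000030790) on chromosome 7 from 110627661 to 110629820. Calcrl (ENSMUSG00000059588) spans chromosome 2 from 84330626 to 84425411, and Ramp1 (ENSMUSG00000034353) spans chromosome 1 from 91179822 to 91225196. Ramp2 (ENSMUSG00000001240) and Ramp3 (ENSMUSG00000041046) both lie on chromosome 11, from 101246028 to 101259546 and from 6658521 to 6677475. Ramp2 overlaps Vps25 on the same strand, so reads in that stretch may have been assigned to either gene. Adm overlaps the antisense gene Gm28863 and Ramp3 the pseudogene Gm11978, both on the opposite strand, and no source used here says whether the counting used strand.

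The 250 bases before the start site are shown for the 5 genes with a promoter entry in RefSeq's table for GRCm38.p6, because the genes of the receptor system differed between the ILC2-like and the vascular classes; there was no entry for Ramp2. They cover chr7:114636358-114636607 (minus strand) for Calca, chr7:110627407-110627656 (plus strand) for Adm, chr2:84425267-84425516 (minus strand) for Calcrl, chr1:91179572-91179821 (plus strand) for Ramp1 and chr11:6658283-6658532 (plus strand) for Ramp3. The windows follow RefSeq's starts, which differ from GENCODE's. Part of the Calcrl window, with its marked bases, lies inside the GENCODE gene, which ends at 84425411. The Ramp3 window also runs past the GENCODE start of 6658521. Each window reads 5′ to 3′ towards its gene, with the bases that match a searched motif in capitals.
Calca: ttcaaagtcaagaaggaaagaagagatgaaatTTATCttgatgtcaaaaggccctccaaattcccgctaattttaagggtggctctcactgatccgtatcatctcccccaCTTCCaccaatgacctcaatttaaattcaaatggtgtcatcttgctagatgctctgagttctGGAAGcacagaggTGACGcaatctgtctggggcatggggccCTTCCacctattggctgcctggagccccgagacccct
Adm: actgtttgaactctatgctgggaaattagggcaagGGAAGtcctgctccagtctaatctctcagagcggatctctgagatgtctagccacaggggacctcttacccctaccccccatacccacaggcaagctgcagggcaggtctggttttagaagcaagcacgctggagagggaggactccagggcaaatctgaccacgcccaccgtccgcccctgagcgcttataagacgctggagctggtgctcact
Calcrl: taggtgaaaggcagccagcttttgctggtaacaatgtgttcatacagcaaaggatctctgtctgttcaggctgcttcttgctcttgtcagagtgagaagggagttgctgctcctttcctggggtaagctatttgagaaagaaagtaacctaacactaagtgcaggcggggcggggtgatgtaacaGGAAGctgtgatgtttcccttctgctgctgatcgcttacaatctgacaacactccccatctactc
Ramp1: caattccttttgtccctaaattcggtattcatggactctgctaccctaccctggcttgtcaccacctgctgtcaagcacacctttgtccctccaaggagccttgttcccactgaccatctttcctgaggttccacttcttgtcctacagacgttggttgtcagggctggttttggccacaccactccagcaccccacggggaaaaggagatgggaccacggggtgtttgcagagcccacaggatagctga
Ramp3: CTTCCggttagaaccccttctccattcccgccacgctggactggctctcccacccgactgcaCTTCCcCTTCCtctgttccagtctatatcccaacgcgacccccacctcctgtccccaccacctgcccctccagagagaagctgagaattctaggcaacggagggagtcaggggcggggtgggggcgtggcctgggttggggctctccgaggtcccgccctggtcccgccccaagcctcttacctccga
Both strands were searched for 6 motifs. The GATA core was written as GATAA and the core of the cyclic AMP response element as TGACG. The AP-1 motif was written as TGANTCA, the core of the hypoxia response element as ACGTG, the ETS core as GGAAG and the TATA box as TATAAA. The cyclic AMP and hypoxia cores can share bases, but none of the 5 promoters held a hypoxia, AP-1 or TATA match. Calca held 1 GATA core, 218 to 214 bases before the start, 1 TGACG at 65 to 61 bases and 3 ETS cores. Ramp3 also held 3 ETS cores, Adm and Calcrl 1 each, and Ramp1 held no match. The same windows of all 32851 promoters in the table held the GATA core in 22.6%, TGACG in 17.8%, AP-1 in 6.75%, the hypoxia core in 16.6%, the ETS core in 64.1% and the TATA box in 12.4%. A match describes letters and no factor's binding.

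The libraries held 5137671 and 5563521 UMIs over 1517 and 1687 barcodes, none of whose sequences they shared, and 1445 and 1655 cells were analysed. Clustering, from which the 6 genes and the pathway lists below were held out, gave 18 clusters in 11 named classes and 1 unnamed cluster of 26 cells. Classes are called "like" a type because they were named from markers: the endothelial-like class held 14 of 14 endothelial markers above 2-fold and the ILC2-like class 8 of 10 ILC2 markers. Levels are UMIs per 1000000 UMIs of a class (CPM), given for library 1 and then library 2. Version 2 of the 3′ chemistry counts transcript ends, so no length scaling was applied, and each gene is compared mainly with itself across classes.

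Of the ligands, Calca was concentrated in ILC2-like cells. This class made up 4.26% of the cells and held 84.1% of the 428 Calca UMIs. The level there was 1524 and 1312 CPM, from 206 and 154 UMIs, or 1418 ± 150.1 CPM (SD, n = 2). T-like cells came next with 9.85 and 99.8 CPM, and dendritic-like cells with 0 and 48.2 CPM. Both ILC2-like libraries stood above every other class, and the T-like and dendritic-like libraries overlapped. Monocyte-like, fibroblast-like, endothelial-like and mesothelial-like cells held 1 to 6 UMIs in all, and B-like, NK- or ILC1-like, macrophage-like and pericyte-like cells held 0. In the last 4 classes, 3 counts would be between 8.54 and 46.3 CPM, so the count of 0 allows a level up to that.

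Calca was uneven within the ILC2-like class. A UMI was found in 39 of 72 cells of library 1 (54.2%, exact 95% interval 42.0 to 66.0%) and in 32 of 60 of library 2 (53.3%, 40.0 to 66.3%), and 21 and 12 cells held 5 or more. One cell of library 2 held 37 UMIs, and the 3 highest cells carried 18.4% and 35.7% of the class's Calca UMIs. With every cell thinned to 1000 UMIs, 34 of 72 (47.2%, 35.3 to 59.3%) and 21 of 55 cells (38.2%, 25.4 to 52.3%) kept a UMI, with 5 shallower cells of library 2 left out. B-like cells, which should lack the gene and had a like median depth of 1830 UMIs against 1869, gave 0 of 126 and 0 of 98 thinned cells, which allows up to 2.38% and 3.06%. These shares are a description, because Calca was chosen by its levels in these classes and cells are not replicates. Neuronal markers summed to 0 and 1 UMI in the ILC2-like class, with 6 and 5 of 6 markers at 0.

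The Calca UMIs outside the ILC2-like class were few and came from few cells. In T-like cells of library 2, 25 of 33 UMIs sat in 3 cells and 19 in 1 of them, whereas library 1 had 3 UMIs in 3 cells. The 8 dendritic-like UMIs of library 2 were all in 1 cell. Of the 23 cells with a Calca UMI outside the class, 9 carried 2 or more UMIs of ILC2 markers (39.1%), against 175 of the 2945 cells without one (5.94%). This marker rule is not particular to ILC2, since 26 of 67 and 50 of 177 mesothelial-like cells met it. In T-like cells 11.8% and 16.5% met it, so 5.94% is not a matched background. Leaving out cells of other classes that met the rule, an alternative chosen after the data were seen, left 11.2 and 33.8 CPM in T-like cells and 0 in both dendritic-like libraries. Whether these are ILC2 outside their cluster, doublets or free RNA was not tested.

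**Figure D1:**
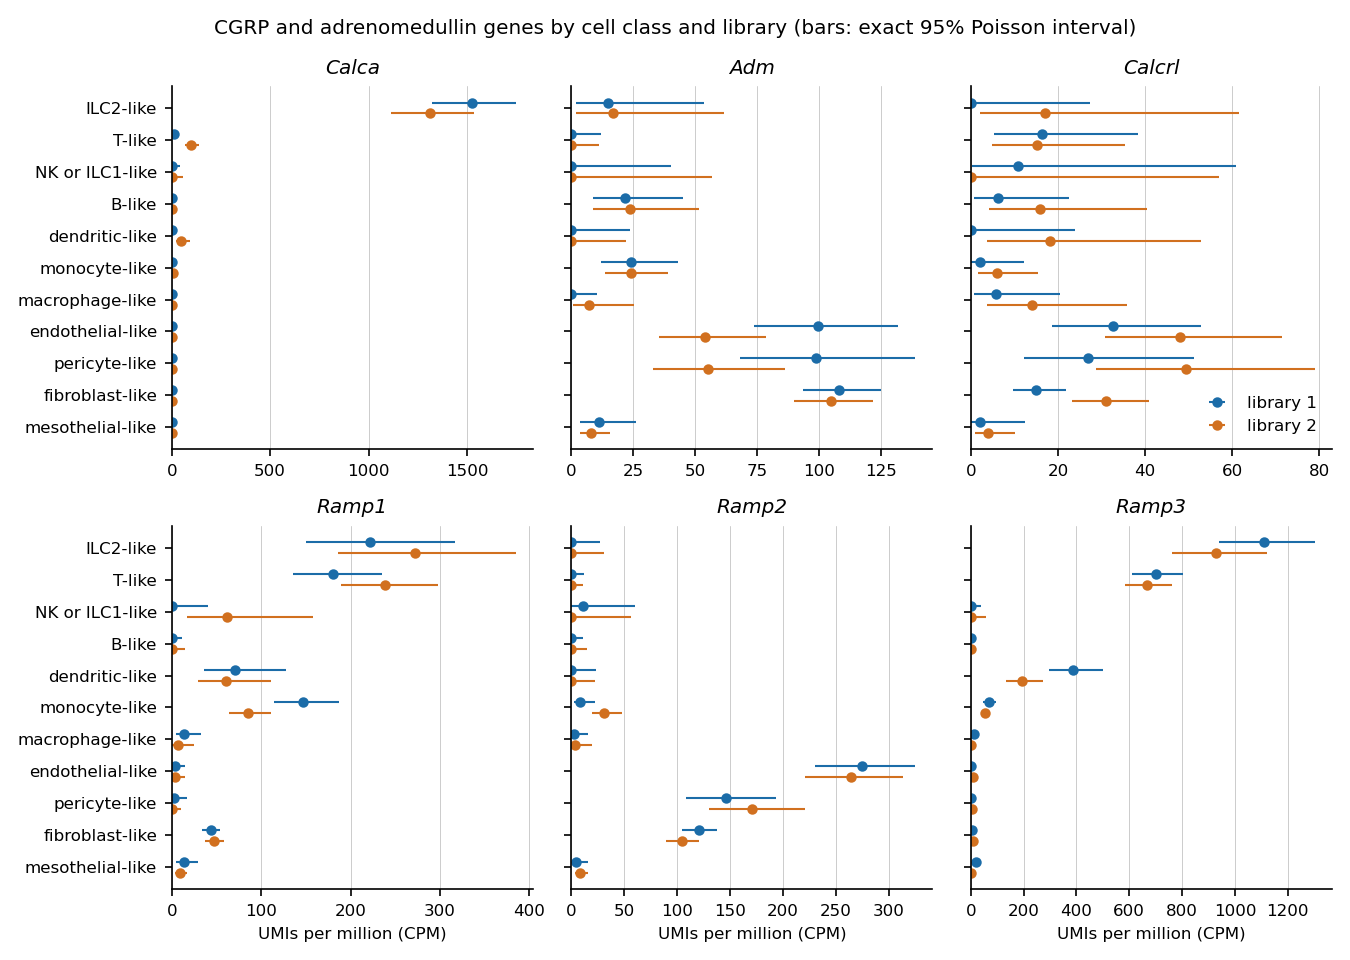
Level of each gene (horizontal axis, UMIs per 1000000 UMIs, linear and scaled per panel) in 11 cell classes for library 1 (blue) and library 2 (orange), with exact 95% Poisson intervals of the counts. Calca stands at 1524 and 1312 CPM in ILC2-like cells and under 100 elsewhere, whereas Ramp2 is highest in endothelial-like cells at 275 and 264 CPM.

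Adm, the adrenomedullin gene, was highest in fibroblast-like and vascular classes. Fibroblast-like cells had 108 and 105 CPM (106.5 ± 2.31, SD, n = 2), from 189 and 172 UMIs. Pericyte-like cells had 98.8 and 55.1 CPM and endothelial-like cells 99.7 and 54.0 CPM. The fibroblast-like libraries lay above both, while the pericyte-like and endothelial-like values overlapped. At a clustering resolution of 2.0, where part of the endothelial-like class was named adipocyte-like, the rest had 133 and 71.0 CPM, a mean of 102 against 104 in fibroblast-like cells, and the 2 classes overlapped. Monocyte-like cells followed with 24.2 and 24.0 CPM, B-like cells with 21.9 and 23.7, ILC2-like cells with 14.8 and 17.0 and mesothelial-like cells with 11.2 and 7.93. These 4 lay under the 3 leading classes in both libraries. Without cells that held 2 or more endothelial marker UMIs, the monocyte-like level was 14.9 and 18.5 CPM. T-like, NK- or ILC1-like and dendritic-like cells held 0 Adm UMIs; in T-like cells 3 counts would be 9.85 and 9.07 CPM. Without thinning, 25.4% and 20.8% of fibroblast-like cells had an Adm UMI, and with 1000 UMIs per cell 11.1% (8.40 to 14.4%) and 9.82% (7.38 to 12.7%), against 2.38% and 1.02% in B-like cells.

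Calcrl, the shared receptor, was the scarcest of the 6 genes, with 182 UMIs in 159 cells. Endothelial-like cells had 32.6 and 48.0 CPM, from 16 and 24 UMIs, and pericyte-like cells 26.9 and 49.3. Fibroblast-like cells had 14.9 and 31.1 CPM and T-like cells 16.4 and 15.1. No class stood apart from the next in this order, since the libraries of each neighbouring pair overlapped, and library 2 was the higher one in all of the first 3. ILC2-like cells, the class with the most Calca, had 0 and 2 Calcrl UMIs, or 0 and 17.0 CPM. Monocyte-like cells had 2.20 and 5.99 CPM and mesothelial-like cells 2.24 and 3.97. In ILC2-like cells the count of 0 in library 1 allows up to 22.2 CPM, and the exact interval of the 2 UMIs in library 2 runs from 2.06 to 61.5 CPM, which takes in the endothelial-like and fibroblast-like values of that library. Which class is highest changed with the cell filter: at 500 genes and 5% mitochondrial UMIs pericyte-like cells led with 41.4 against 39.3 CPM.

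Ramp1, the partner for CGRP, was highest in the ILC2-like and T-like classes. ILC2-like cells had 222 and 273 CPM and T-like cells 181 and 239, which overlapped. Monocyte-like cells had 147 and 85.3 CPM, dendritic-like cells 71.3 and 60.3 and fibroblast-like cells 43.5 and 47.0. Each of these 3 lay under the class before it in both libraries. Endothelial-like cells had 4.07 and 4.00 CPM, from 2 UMIs in each library, pericyte-like cells had 1 UMI in all, and B-like cells had 0. NK- or ILC1-like cells had 0 and 61.7 CPM, the latter from 4 UMIs.

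Ramp2, the partner for adrenomedullin in vessels, was highest in vascular and fibroblast-like cells. Endothelial-like cells had 275 and 264 CPM (269.3 ± 7.53, SD, n = 2), pericyte-like cells 147 and 171 and fibroblast-like cells 121 and 104. The 3 classes did not overlap with each other. Monocyte-like cells had 8.79 and 31.4 CPM, or 9.93 and 12.96 without cells that held 2 or more endothelial marker UMIs, and the remaining classes with any UMI stood at 10.9 CPM or less. ILC2-like, T-like, B-like and dendritic-like cells held 0 Ramp2 UMIs in both libraries; 3 counts would be 22.2 and 25.6 CPM in the ILC2-like and 9.85 and 9.07 CPM in the T-like class. With 1000 UMIs per cell, 22.3% (16.4 to 29.2%) and 25.3% (18.7 to 33.0%) of endothelial-like cells had a Ramp2 UMI, against 0 of 155 and 0 of 162 T-like cells. Without thinning the endothelial-like shares were 46.4% and 49.7%.

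Ramp3, the other adrenomedullin partner, had the most UMIs of the RAMPs and was highest in ILC2-like and T-like cells. ILC2-like cells had 1109.8 and 929 CPM (1019 ± 128.2, SD, n = 2), T-like cells 702 and 668 and dendritic-like cells 389 and 193. Each of these classes lay above the next in both libraries. Monocyte-like cells had 68.1 and 53.9 CPM, and endothelial-like cells 2.03 and 10.0, from 1 and 5 UMIs. B-like and NK- or ILC1-like cells held 0 UMIs. There 3 counts would be 9.37 and 11.8 CPM in B-like and 32.7 and 46.3 CPM in NK- or ILC1-like cells. These limits lie under the T-like levels, so the lymphoid classes differed, but a low level is not excluded. With 1000 UMIs per cell, 38 of 72 (52.8%, 40.7 to 64.7%) and 21 of 55 ILC2-like cells (38.2%, 25.4 to 52.3%) had a Ramp3 UMI, and 32.3% and 40.1% of T-like cells, against 0 of 126 and 0 of 98 B-like cells. Unlike Calca in T-like cells, Ramp3 there was spread: 76 of 161 and 83 of 176 cells held a UMI, and the 3 highest cells carried 14.5% and 11.8% of the UMIs.

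The RAMP that led differed between classes. In ILC2-like cells 83.3% (77.1 to 88.5%) and 77.3% (69.5 to 83.9%) of the RAMP UMIs were Ramp3, the rest were Ramp1, and 0 of 180 and 0 of 141 were Ramp2. T-like cells had 79.6% and 73.7% Ramp3 and dendritic-like cells 84.5% and 76.2%. In endothelial-like cells 97.8% (93.8 to 99.5%) and 94.96% (89.9 to 98.0%) were Ramp2, and in pericyte-like cells 96.1% and 96.7%. Fibroblast-like cells held mainly Ramp2, at 71.8% and 65.5%, with 25.9% and 29.5% Ramp1. Monocyte-like cells were the class led by Ramp1, at 65.7% and 50.0%, with Ramp3 at 30.4% and 31.6%. Shares are not given for the 4 classes with under 20 RAMP UMIs in either library or both.

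**Figure D2:**
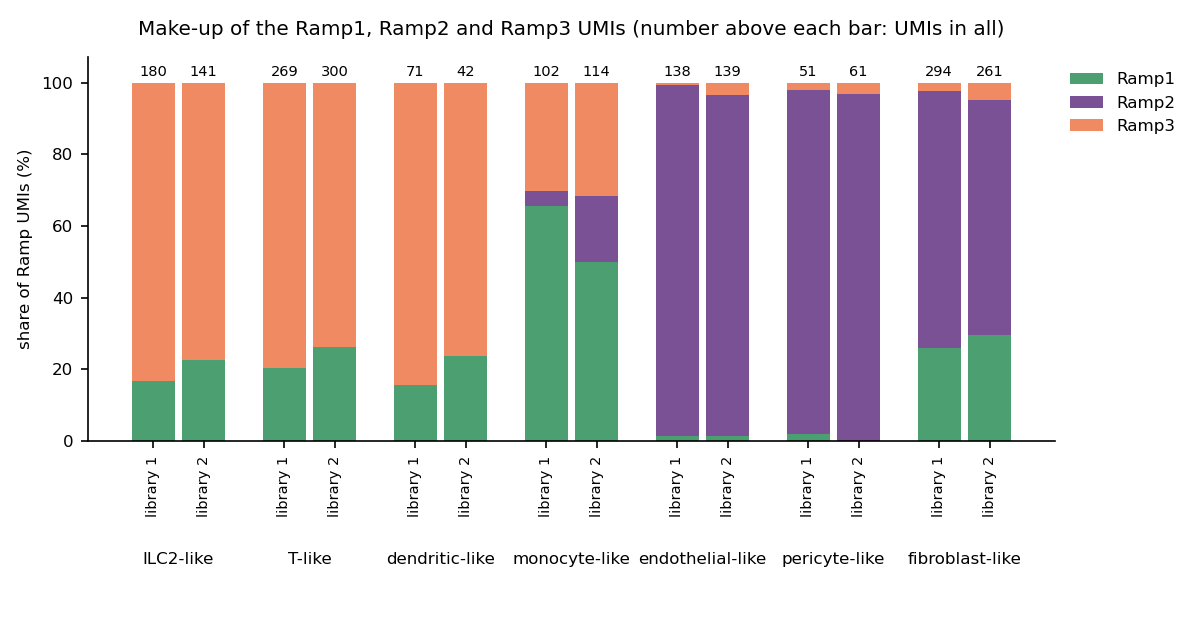
Share of Ramp1, Ramp2 and Ramp3 in the RAMP UMIs (vertical axis, percent) of each library in the 7 classes with at least 20 such UMIs in both, with the number of UMIs above each bar. Ramp3 fills 73.7 to 84.5% in the ILC2-like, T-like and dendritic-like classes, and Ramp2 fills 94.96 to 97.8% in the endothelial-like and pericyte-like classes.

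Receptor and partner were seldom counted in the same cell. Calcrl and Ramp2 met in 5 of 181 endothelial-like cells of library 1, where 6.03 would if detection were independent, and in 15 of 163 of library 2, against 11.9. In fibroblast-like cells they met in 12 of 464 and 13 of 529 cells, against 7.48 and 10.3. Of the 13 and 24 endothelial-like cells with a Calcrl UMI, 5 and 15 thus also held Ramp2. Calcrl and Ramp1, the CGRP receptor pair, met in 7 and 3 fibroblast-like cells, against 3.22 and 5.14, and in 2 T-like and 1 ILC2-like cell of library 2. Every other class held at most 1 such cell per library. Within ILC2-like cells, Calca and Ramp3 met in 31 of 72 and 21 of 60 cells, against 26.0 and 18.1, and Ramp1 and Ramp3 in 14 and 11 cells, against 16.7 and 14.2. Deeper cells hold UMIs of more genes, so unthinned counts can pass independence through depth alone. With 1000 UMIs per cell, Calca and Ramp3 met in 22 and 8 ILC2-like cells, against 17.9 and 8.02. Calcrl and Ramp2 then met in 1 and 2 endothelial-like cells, against 1.34 and 2.79, and in 3 and 0 fibroblast-like cells, against 0.87 and 1.02.

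Within the T-like class the RAMPs differed by cluster. A cluster of 86 cells led by Cd163l1, Actn2 and Il7r had 730 and 711 CPM of Ramp1 and 1842 and 1167 CPM of Ramp3. The 228 cells led by Cd28 and Cd3d had 30.6 and 86.0 CPM of Ramp1 and 459 and 550.3 CPM of Ramp3. Both genes were higher in the Cd163l1 cluster in both libraries, and their levels were above those of the ILC2-like class in both, so the ILC2-like class had the highest mean of Ramp1 and Ramp3 among classes but not among clusters. The last T-like cluster, 23 cells with Foxp3 and Ctla4 among its leading genes, held 9 Ramp1 and 4 Ramp3 UMIs. No Ramp2 UMI was found in any of them. The unnamed cluster of 26 cells, led by Il13 and Arfgap3, held 12 Calca, 14 Ramp1 and 23 Ramp3 UMIs.

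Within the fibroblast-like class, ligand and receptor were highest in different clusters. Adm had 208 and 139.7 CPM in the cluster led by Cxcl14 and Inmt, 125 and 240.2 CPM in that led by Mfap4 and Mgp, and 84.3 and 94.8 CPM in that led by Has1. The cluster led by Pi16 had 30.9 and 25.3 CPM, the lowest of the 4 in both libraries. Calcrl went the other way, with 29.3 and 58.4 CPM in the Pi16 cluster, from 18 and 30 UMIs, and 4.47 to 27.5 CPM in the other 3. Ramp1 was 116 and 123 CPM in the Mfap4 cluster and 26.0 to 37.8 CPM in the others. Ramp2 ranged from 61.3 to 129 CPM over all 4, lowest in the Mfap4 cluster in both libraries.

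**Figure D3:**
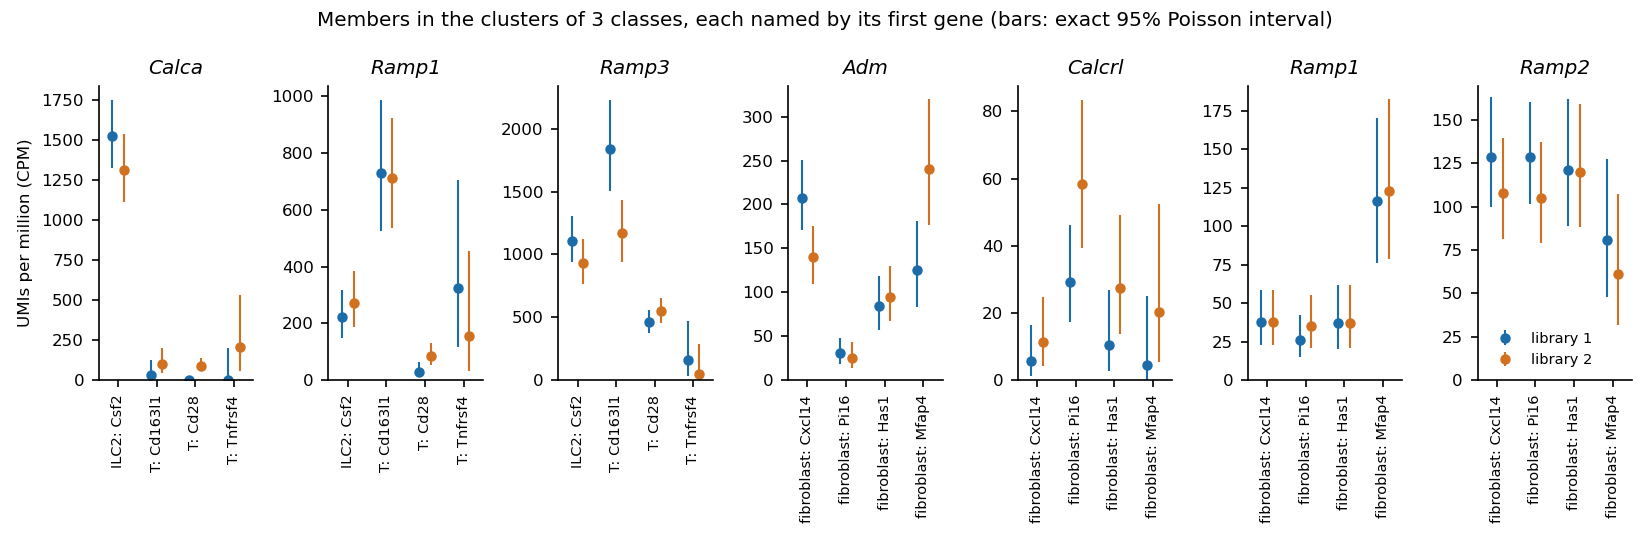
Level (vertical axis, UMIs per 1000000 UMIs, scaled per panel) of Calca, Ramp1 and Ramp3 in the ILC2-like and T-like clusters and of Adm, Calcrl, Ramp1 and Ramp2 in the 4 fibroblast-like clusters, each cluster named by its first gene, with exact 95% Poisson intervals. Ramp1 reaches 730 and 711 CPM in the Cd163l1 cluster, and Calcrl is highest in the Pi16 cluster at 29.3 and 58.4 CPM.

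The pericyte-like values of Ramp2, Calcrl and Adm stand beside endothelial transcripts in the same cells. The 14 endothelial markers summed to 69.3% and 85.1% of their endothelial-like level there, single markers to between 51.4 and 117% of it, and 0 of 14 were at 0. Ramp2 was at 53.4% and 64.8% of its endothelial-like level, Calcrl at 82.8% and 103% and Adm at 99.1% and 102.0%. Ramp2 thus lay under the marker sum in both libraries. Of the pericyte-like cells, 72 of 73 and 77 of 82 held 2 or more endothelial marker UMIs, so too few were left to give a level without them, and the part of these transcripts in the pericyte-like values was not tested. In fibroblast-like cells the markers summed to 2.01% and 2.27% of the endothelial-like level, with single markers between 0 and 75.8%. Without the fibroblast-like cells that held 2 or more such UMIs, Ramp2 was 116 and 104 CPM, against 121 and 104 with them, and Adm 121 and 117 CPM, against 108 and 105.

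**Figure D4:**
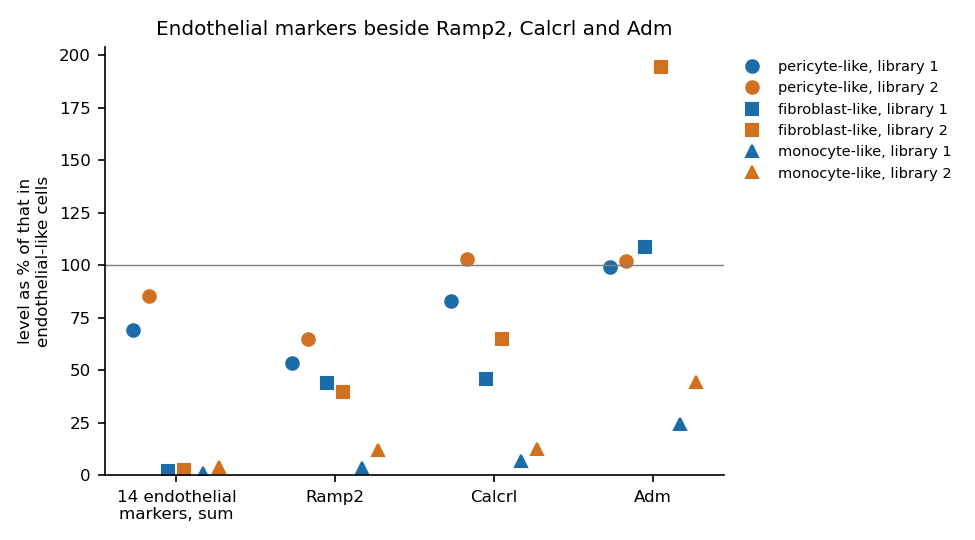
Level in pericyte-like (circles), fibroblast-like (squares) and monocyte-like cells (triangles) as a percent of that in endothelial-like cells (vertical axis; grey line, 100%), for library 1 (blue) and library 2 (orange). Fibroblast-like cells carry 2.01% and 2.27% of the marker sum but 44.0% and 39.5% of the Ramp2 level, whereas pericyte-like cells carry 69.3% and 85.1% of the marker sum.

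The endothelial-like class itself held adipocyte transcripts, with 2 or more adipocyte marker UMIs in 69 of 181 and 75 of 163 cells. Leaving those cells out, an alternative chosen after the data were seen, gave Ramp2 at 259 and 273 CPM and Calcrl at 37.0 and 51.2 CPM. At a clustering resolution of 2.0 these cells split into an endothelial-like cluster with 310.0 and 328 CPM of Ramp2 and a cluster named adipocyte-like with 238 and 237 CPM. Both held the gene.

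The genes whose levels over the 22 class sums were most like each member's were named by Pearson's r of log2(CPM + 10) among 4307 genes, as a description. The sums share libraries and related classes, and the members were kept out of the clusters but genes like them were not. For Calca the 5 were Ccl1 (r = 0.95), Ccdc184, Csf2, Paxbp1 and Gata3 (0.91), with Ccl1 a chemokine, Csf2 the gene of GM-CSF and Gata3 a transcription factor and ILC2 marker. For Ramp3 they were Aebp2 (0.94), Ltb4r1, Il1rl1, Il2ra and Usmg5 (0.86), and for Ramp1 Ltb4r1 (0.89), Ramp3, Usmg5, Il1rl1 and Il7r (0.79). Ltb4r1, a leukotriene B4 receptor gene, and Il1rl1, the IL-33 receptor, appear for both RAMPs. For Ramp2 they were Tek (0.98), Sparcl1, Jam2, Pxdn and Pdzd2 (0.95), where Tek is the angiopoietin receptor and Jam2 an endothelial junction gene. For Adm they were Tpst1 (0.89), Tek, Pcdh19, Nid1 and Ebf1 (0.85). For Calcrl the likeness was lower, with Plcb4 (0.79), Lrrc8c, Rapgef1, Ash1l and Jam2 (0.76). Between members, r was 0.85 for Ramp1 and Ramp3, 0.84 for Adm and Ramp2, 0.76 for Calca and Ramp3, 0.71 for Calcrl and Ramp2 and -0.12 for Calca and Calcrl.

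The other genes come from 10 lists of 147 genes, which include low-oxygen and dissociation stress genes outside the peptide system. Of the 147, 146 matched 1 row and 87 passed the filter on low counts. They were tested in endothelial-like and in ILC2-like cells against the mean of the other classes with edgeR's quasi-likelihood test. In the calcitonin family itself little else was counted: Calcb had 2 UMIs in the analysed cells and Adm2, Iapp and Calcr had 0. Gpr182, an endothelial receptor linked to adrenomedullin, had 22.4 and 18.0 CPM in endothelial-like cells and 27 UMIs in all, and Crcp, the CGRP receptor component gene, had 152 UMIs; neither was tested. The decoy receptor gene Ackr3, the only one tested, was highest in fibroblast-like cells at 434 and 410.5 CPM, against 54.9 and 84.0 CPM in endothelial-like cells.

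In endothelial-like cells 49 of the 87 genes were higher and 7 lower, where 27.6% of all 7752 genes tested were higher and 10.5% lower. Their median log2 fold was 1.15, and that of all genes 0.18. Of the 49, 43 were also above the arithmetic mean of the other classes in both libraries. Ace, Ackr3, Agtr1a, Pcsk6, Penk and Prkar2b were not, since the fit compares with a mean of logarithms. A class with 0 UMIs pulls this mean down. Genes with such a class were therefore hard to call lower, and the 7 may leave some out. Against the other classes summed over cells, 40 genes were higher and 31 lower, with 1782 higher and 2359 lower of all 10717 tested. The 17 genes of the dissociation stress list gave 16 of the 49; its summed level was 28366 and 23515 CPM here, 27860 and 26444 in pericyte-like cells and 3628 to 21471 CPM in the other classes, and its part in the calls was not tested.

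Of 4 tested genes that break down peptides, 1 was higher in endothelial-like cells (25%, under the 27.6% of all genes) and 0 lower. Anpep, Dpp4 and Ide were not called. Of 6 tested peptide maturation genes 3 were higher (50%) and 1 lower (16.7%). The fold was largest for Ece1, which cleaves big endothelin and also CGRP. Ece1 had 309 and 354 CPM against 54.1 and 62.2 CPM on average elsewhere (edgeR log2 fold 3.43 ± 0.17 SE, adjusted p = 1.49e-22). No class had more of it. Cpd, a carboxypeptidase, had 83.4 and 116 CPM against 26.3 and 27.7 (log2 3.33, adjusted p = 5.23e-11). Pam, the enzyme that amidates both peptides, was called higher at 61.0 and 126 CPM against 52.9 and 94.5 (log2 2.82), but mesothelial-like cells were highest and the call turned to lower against the other classes summed over cells. Furin, a proprotein convertase, was lower at 112 and 118 CPM (log2 -0.54, adjusted p = 0.0246).

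Of 24 tested genes of the cyclic AMP relay, 11 were higher and 4 lower in endothelial-like cells. That is 45.8% and 16.7%, where 27.6% and 10.5% of all genes tested were. Akap12, a scaffold for protein kinase A, had 503 and 516 CPM against 80.3 and 72.0 (log2 4.65, adjusted p = 6.80e-22, edgeR). Adcy4, an adenylate cyclase gene, had 57 and 35 UMIs, and Rapgef3, the gene of a cyclic AMP sensor, 130.2 and 104 CPM; both were named after their values were seen. The phosphodiesterase genes Pde4b and Pde8a were higher (log2 1.39 and 1.59), and Akap13, Crem, Pde3b and Pde7a were lower. Of 12 tested genes of vasoactive peptides and receptors, 8 were higher (66.7%) and 0 lower. Gucy1a3, Gucy1b3, Ptgir and Ptgis were not called by edgeR. Ptgis, for example, lay under the other classes in both libraries (log2 difference -1.88 and -0.33), but its fitted log2 fold was -0.40 ± 1.40 SE. Genes with 0 UMIs in another class were hard to call lower, so the count of 0 lower says little about them. Ednrb, an endothelin receptor, had 153 and 164 CPM against 49.2 and 63.1 (log2 5.69, adjusted p = 2.37e-18), with macrophage-like cells higher at 385 CPM. Npr1, a natriuretic peptide receptor, had 83.4 and 96.0 CPM against 34.0 and 33.1 (log2 4.38). For this gene 4 other classes had 0 UMIs, and mesothelial-like cells were highest at 139 CPM. Among genes of receptor trafficking Grk5 and Rab11a were higher and Arrb2 and Slc9a3r1 lower of 10. That is 20% in each direction, so the share called higher was under the 27.6% of all genes.

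In ILC2-like cells 20 of the 87 genes were higher and 3 lower, where 12.0% and 3.96% of all 7752 genes were. Their median log2 fold was -0.36, and that of all genes -0.28. The dissociation stress list gave 8 of the 20 and the low-oxygen list 3. The share of higher calls among all 87 therefore does not describe the peptide system alone. Furin had 3714 and 3084 CPM, against 143.0 and 147 on average elsewhere (edgeR log2 fold 5.21 ± 0.12 SE, adjusted p = 9.34e-35). It was the only 1 of 6 tested peptide maturation genes called (16.7%). Pam, the amidating enzyme, had 0 UMIs in the class, where 3 counts would be 22.2 and 25.6 CPM. The fit could not call Pam lower, because another class also had 0 UMIs. Crem, a cyclic AMP-responsive transcription factor gene, had 2922 and 2206 CPM against 457 and 368 (log2 3.69, adjusted p = 4.47e-28), and Creb1 had 155 and 136 CPM against 47.0 and 42.8 (log2 1.96). Prkar1a, a regulatory subunit of protein kinase A, was also higher (log2 1.46), and Pde4b was lower at 22.2 and 51.1 CPM against 155 and 163 (log2 -1.58, adjusted p = 0.0132). In all 5 of 24 genes of the relay were higher (20.8%), with Akap13 and Pde7a, and 1 was lower (4.17%).

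Ptgir, the Gs-coupled prostacyclin receptor, was the 1 of 12 vasoactive genes called in ILC2-like cells, at 229 and 136 CPM. That is 8.33% called higher, where 12.0% of all genes tested were. Ptgir was named after its values were seen. The neuromedin U receptor gene Nmur1, known from ILC2 elsewhere, had 0 UMIs in the analysed cells. Of 9 low-oxygen genes, Ldha (log2 2.11), Vegfa and Ero1l were higher (33.3%). Vegfa had 88.8 and 25.6 CPM against 19.0 and 22.2 on average elsewhere, so library 2 was nearly level. Fibroblast-like cells had the highest mean of Vegfa, at 64.1 CPM. Ndrg1 was lower, with 0 UMIs in the class against 97.4 and 116 CPM for the mean of the others. The stress list summed to 21471 and 16935 CPM in the class, and its part in the calls was not tested. Of its 17 genes 8 were higher (47.1%), led by Junb at 10018 and 6730 CPM against 3030 and 2597 (log2 1.94). Egr1 was lower at 96.2 and 8.52 CPM against 1236 and 1489 (log2 -2.96, adjusted p = 1.14e-09, edgeR). Of the 87 genes, 26 had 0 UMIs in the class, and 1 of these, Ndrg1, was called. Where another class also had 0 UMIs, the fit could not call such a gene lower. Pam, for example, had a log2 fold of -6.31 with a standard error of 46957. The count of lower genes therefore says nothing about these genes. A lower call was also hard to reach for a gene with UMIs in ILC2-like cells and 0 UMIs in another class. Of the 20, 17 were above the arithmetic mean of the other classes in both libraries, all but Dusp1, Slc9a3r1 and Zfp36; against the other classes summed over cells, 15 genes were higher and 30 lower, with 824 higher and 1573 lower of all 10584.

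**Figure D5:**
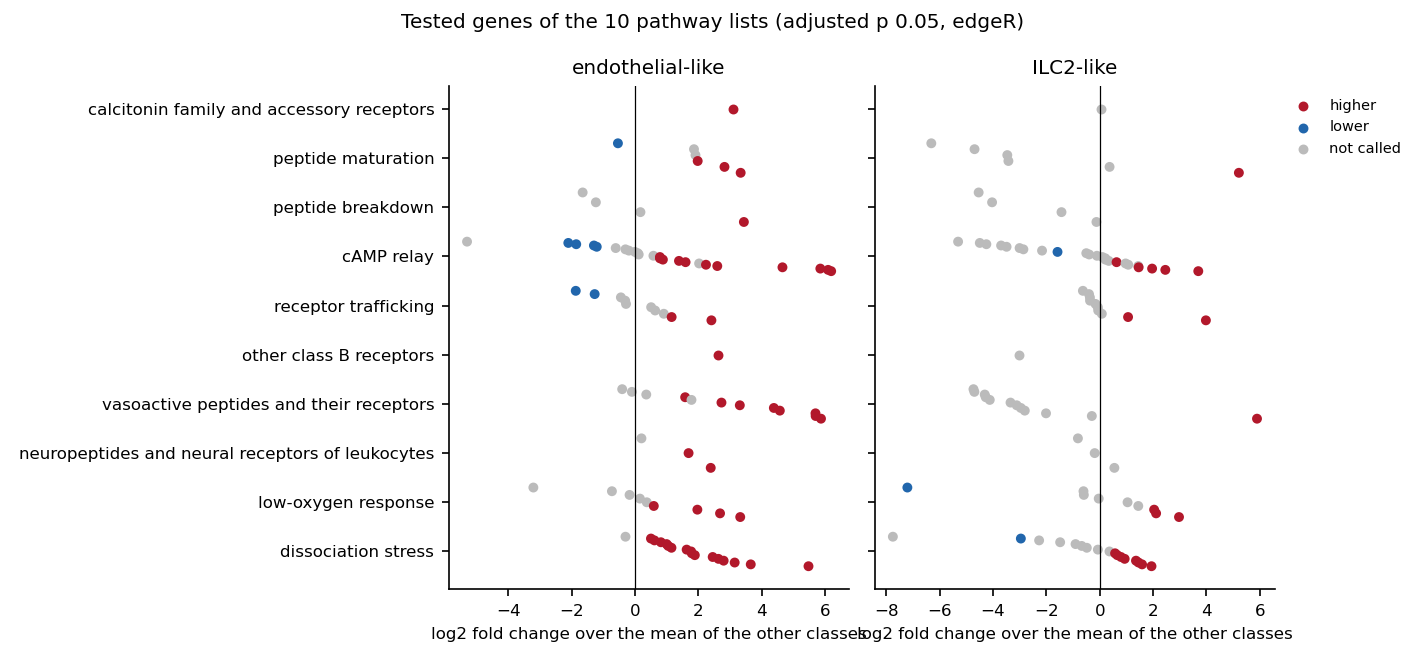
Log2 fold change (horizontal axis) of the 87 tested genes by list in endothelial-like (left) and ILC2-like cells (right) over the mean of the other classes, coloured by edgeR's call at an adjusted p of 0.05. On the left 49 genes are higher and 7 lower, and on the right 20 and 3, with Furin at 5.21.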

How the data were processed

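Single-cell RNA libraries of 2 mice were analysed. The authors deposited 1 matrix of UMI counts per gene and barcode; its values are integers, and the file headers name no scaling. The submitters' processing notes list Cell Ranger and mm10; the version, the rule that chose barcodes and any depth equalisation are not given in the sources used here. A suffix of 1 or 2 on each barcode was matched by number to the mouse. The median barcode had 3065 and 2663 UMIs.

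The cell filter asked for 200 genes and allowed 10% mitochondrial UMIs, which removed 61 barcodes. Scrublet in scanpy 1.11.5 removed 39 and 4 doublets per library at automatic thresholds of 0.163 and 0.313. Counts scaled to 10000 per cell were log-transformed; 2000 variable genes, 30 components, 15 neighbours and Leiden resolution 1.0 with seed 0 were used, without the members and pathway lists. A cluster took the class with the highest mean log2 marker fold and at least 3 markers above 2-fold; a cluster with more markers of another class than of its own among its 10 leading genes stayed unnamed, a rule set after the data were seen.

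Counts were summed per class and library (22 sums, at least 10 cells each). Shares use cells thinned to 1000 UMIs. Clopper-Pearson and Poisson intervals at 95%, and the limit of 3 counts for a count of 0, cover counting error only. edgeR 4.0.16 (R 4.3.3; glmQLFit, glmQLFTest, TMM, filterByExpr, library as block) compared a class with the equally weighted mean of the others, with Benjamini-Hochberg adjustment over all genes and calls at 0.05; p-values rest on the spread between 2 libraries within classes. The mean is one of logarithms, so classes with 0 UMIs pull it down and fitted folds are not bounds. The fits were tested on simulated data. Every class came from the same 2 animals, so library was the block; no fit without residual degrees of freedom was tested.

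Named were all members, the 5 genes most like each (average CPM at least 30), and per list and contrast up to 4 called genes of largest fold with average log2 CPM of at least 5 and 1 direction in both libraries; named outside this rule, after their values were seen, were Adcy4, Rapgef3, Crem, Pde3b, Pde7a, Grk5, Agtr1a, Pcsk6, Penk and Prkar2b in endothelial-like cells, Ptgir, Ero1l, Akap13, Pde7a, Dusp1 and Zfp36 in ILC2-like cells, and genes given as not called or not tested. Members, lists and tests were chosen with earlier results of these data known. Alternatives were DESeq2 1.42.0 (size factors, Wald test), other resolutions, cell filters, doublet rules, thinning and class means, and no replicate block; fits without the pericyte-like class and levels without cells holding adipocyte or ILC2 markers were added after the data were seen.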

Additional observations from a re-analysis of the deposited data

How the results depend on the processing

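Under the alternatives for clustering, cell filter and doublets, Calca, Ramp1 and Ramp3 stayed highest in ILC2-like, Adm in fibroblast-like (by its mean) and Ramp2 in endothelial-like cells; Calcrl was highest in endothelial-like cells except with the stricter cell filter or without other classes' cells holding ILC2 marker UMIs, where pericyte-like cells led. Adm in fibroblast-like cells moved by more than its SD of 2.31 CPM, to 104 CPM at resolutions 0.5 and 2.0, 103.7 with the stricter cell filter and 119 without cells holding 2 or more endothelial marker UMIs. Ramp2 in endothelial-like cells moved to 319 CPM at resolution 2.0, and Ramp3 in T-like cells to 734 CPM with the stricter filter and 712 without cells holding ILC2 marker UMIs. Depth set the shares: the mean share of ILC2-like cells with a Ramp3 UMI was 45.5% at 1000 UMIs, 33.8% at 500, 59.3% at 2000 and 61.7% without thinning, and that of endothelial-like cells with a Ramp2 UMI was 23.8%, 11.9%, 42.9% and 48.1%. Lower calls among pathway genes rose from 7 to 31 in endothelial-like and from 3 to 30 in ILC2-like cells when the other classes were summed over cells; they rose to 5 and 7 in ILC2-like cells at resolutions 0.5 and 2.0. With the classes summed, Ackr3 (log2 -1.51), Pam (-0.84) and Ace (-1.39) turned lower in endothelial-like cells, and Slc9a3r1 (0.60) and Vegfa (1.05) were no longer called in ILC2-like cells. Without the filter on low counts Furin in endothelial-like (-0.50) and Slc9a3r1 in ILC2-like cells (0.91) lost their calls, at resolution 2.0 Furin (-0.47) and Ace (1.30) in endothelial-like cells, and with no doublet removal or the 2% highest scores removed Pde4b in ILC2-like cells (-1.10 and -1.09); the cause was not tested. Fitted with no replicate block, the counts were 49 and 7, and 20 and 3, as with the block; the libraries pair the classes because each mouse gave all of them. With 1 library left out no residual degrees of freedom remained, and the median log2 difference over the pathway genes was 0.72 to 0.80 in endothelial-like and -0.74 to -0.26 in ILC2-like cells. Of the 5 genes most like a member, 1 to 4 stayed under another offset or Spearman's measure.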
